A study of Mus musculus with 12 samples.

Results

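The genes described here are 10 of the neurotrophin and GDNF systems: the ligand genes Bdnf, Ntf3 and Gdnf, the Trk receptor genes Ntrk2 and Ntrk3, the death-domain receptor gene Ngfr (p75NTR), the sortilin gene Sort1, and the GDNF receptor genes Ret, Gfra1 and Gfra2. They were chosen by name as members of these systems, but with earlier results of these data known. Each gene was read on the probe with the highest mean signal over all arrays among the probes annotated to that gene alone, and its other probes served as a check. Of the 10 genes, 9 had such a probe, against 18194 genes on the whole array. Ntf3 was not paired with a probe in the annotation table used here. The study used a signal of 50 as its cutoff, and a group mean over it was reached by 6 of the 10 (Ntrk2, Ntrk3, Sort1, Ret, Gfra1 and Gfra2), and these, whose means were above 50 in each of the 4 groups, were tested among 10511 genes in all. Bdnf, Gdnf and Ngfr stayed under 50 in every group mean.

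Each array holds RNA from the Th9 level of the spinal cord of a female mouse, of strain C57BL/6 in the labels and C57BL/6J in the methods, with no transgene or treatment named in the labels. Age was 2 to 3 months in young and 15 to 18 months in aged mice, and each age had an intact group and a group with a contusion SCI at Th9 whose cords were collected 9 days later. Each of these 4 groups had 3 mice, which gives 12 arrays. The contusion itself, the mice of one sex and the single time after SCI limit what these groups stand for. Values are linear MAS 5.0 signals, scaled by the authors to a common trimmed mean, and a signal has no meaning against that of another probe, so levels are compared only within a probe. On each array 35.0% to 36.7% of the 45101 probes had a signal above 50. The number of arrays limits the precision.

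Neurotrophins are secreted as precursors, cleaved to mature ligands, and bind Trk receptor tyrosine kinases, whereas the precursors bind p75NTR together with sortilin. BDNF acts on TrkB, the product of Ntrk2, and NT-3, the product of Ntf3, acts on TrkC, the product of Ntrk3; both Trk genes make full-length kinase receptors, found mainly in neurons, and truncated receptors without the kinase, of which truncated TrkB is abundant in astrocytes. GDNF family ligands bind a GFRα co-receptor anchored to the membrane, which then engages the RET kinase, and in the spinal cord these systems are known for the survival and growth of motor and sensory neurons.

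A promoter was listed in RefSeq (build GRCm38.p6, 300 bases that span a transcript start) for 6 of the 10 genes: 7 for Bdnf, 2 each for Ntf3 and Gdnf, and 1 each for Ntrk2, Ngfr and Gfra1. The Ntrk2 promoter is shown because most results below concern this receptor gene, and a Bdnf promoter because BDNF is its ligand. Of the 7 Bdnf promoters, the one shown was taken as the only one with a match to the cAMP response element core described next. The Ntrk2 stretch lies at chr13:58806319-58806618 and the Bdnf stretch at chr2:109692186-109692485, both on the plus strand. The motifs below were searched on both strands. The GC box was read as GGGCGG. The core of the cAMP response element was read as TGACG. The TATA box was read as TATAAA. The E-box was read as CACGTG. Capitals mark the matches, a GC box in Ntrk2 and a cAMP response element core, read on the other strand, in Bdnf, and no matches overlapped.
Ntrk2 promoter: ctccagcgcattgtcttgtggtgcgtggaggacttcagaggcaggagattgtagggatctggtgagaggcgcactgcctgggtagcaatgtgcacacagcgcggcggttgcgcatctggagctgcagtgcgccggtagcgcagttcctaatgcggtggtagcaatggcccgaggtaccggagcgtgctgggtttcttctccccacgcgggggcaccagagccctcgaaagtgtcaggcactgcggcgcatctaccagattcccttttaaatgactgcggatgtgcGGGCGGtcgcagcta
Bdnf promoter: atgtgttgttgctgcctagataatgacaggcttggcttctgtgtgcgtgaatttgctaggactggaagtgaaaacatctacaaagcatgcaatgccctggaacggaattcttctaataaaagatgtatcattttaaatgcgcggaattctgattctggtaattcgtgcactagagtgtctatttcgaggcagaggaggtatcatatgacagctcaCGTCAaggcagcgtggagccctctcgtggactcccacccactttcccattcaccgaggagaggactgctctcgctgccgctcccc
The Ntrk2 stretch has 61.3% G and C and the Bdnf stretch 48.7%. Among 32851 promoters of this length, 35.7% held the GC box, 20.8% the cAMP response element core, 13.6% the TATA box and 7.15% the E-box. A match is only a match of letters, and no binding was measured here.

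Before the members, the cell types of the segments were examined through lists of marker genes, since each signal is a mean over all cells of the segment. In such bulk RNA, fewer cells of a type and less RNA per cell cannot be told apart. All 12 neuron genes and all 10 astrocyte genes of the lists were above 50 in every group, the defining genes Rbfox3, Snap25 and Syt1 of neurons and Aqp4, Gja1 and Gjb6 of astrocytes included, whereas the motor neuron genes Chat, Isl1 and Mnx1 stayed under 50 in all groups. The summed signal of the neuron list was 24669 to 26087 over the intact arrays of both ages, 8513 to 13163 after SCI in young mice, and 1880, 12168 and 7921 in aged injured replicates 1, 2 and 3. That of the astrocyte list was 18067 to 20027 in intact cord, 19712 to 22362 in young injured cord, and 9885, 16786 and 15542 in aged injured replicates 1, 2 and 3. Aged injured replicate 1 thus stood apart, with the lowest neuron and astrocyte sums of all 12 arrays, and its effect is given beside the results that it moved most.

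**Figure D1:**
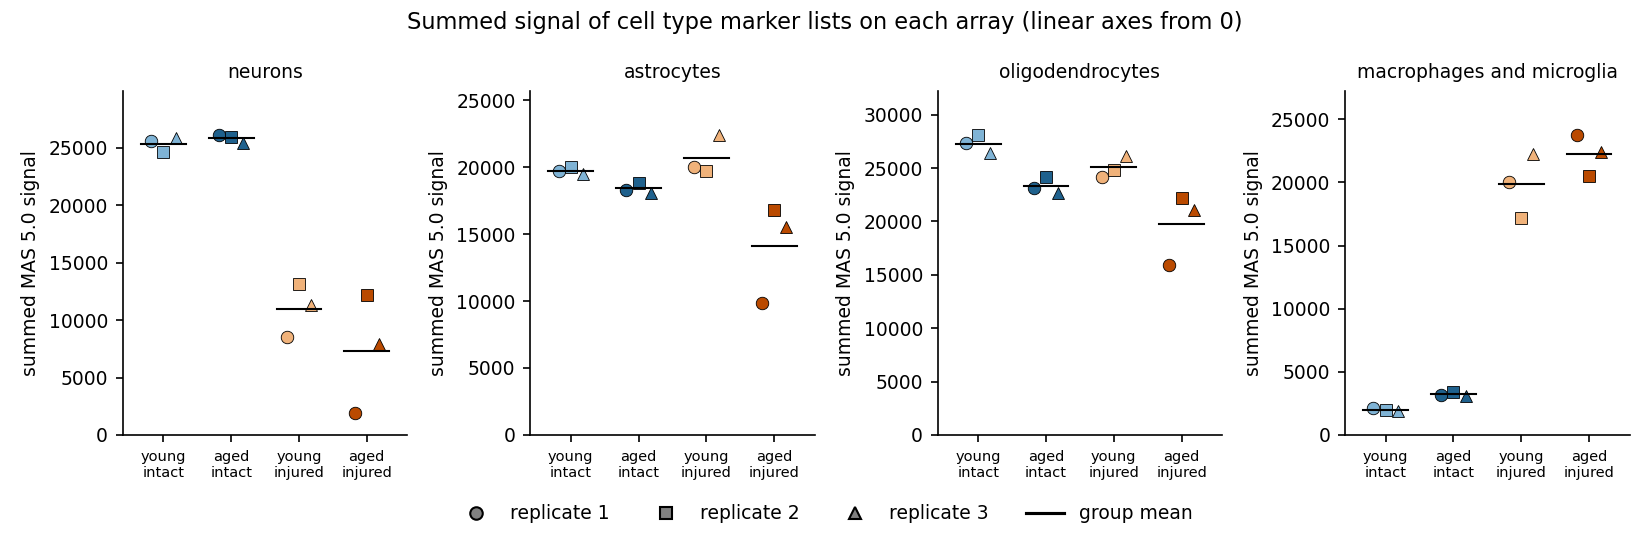
Summed MAS 5.0 signal of the marker genes of 4 cell types on each of the 12 arrays, by group, with bars at the group means. The neuron sum was lower on every injured array than on every intact array, and aged injured replicate 1 had the lowest neuron, astrocyte and oligodendrocyte sums.

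Of the ligands, neither Bdnf nor Gdnf reached the cutoff. Bdnf, which encodes the TrkB ligand, had signals of 42.2, 41.7 and 49.6 in young intact cord, 36.8, 51.7 and 48.0 in aged intact cord, 21.8, 32.1 and 15.7 in young injured cord, and 14.0, 24.3 and 26.6 in aged injured cord. All 6 injured arrays lay below all 6 intact ones, and only 1 of the 12 arrays was above 50. Within an age, such a lack of overlap downward was found for 38.7% of all genes tested in young and 41.6% in aged cord. The group means after SCI were 52.1% of the intact mean in young and 47.5% in aged mice. When every gene with a probe was fitted regardless of its signal, Bdnf had an adjusted p of 0.0159 for injury in young and 0.00716 in aged cord (limma). The share of all genes called in that fit is not given here. The second Bdnf probe was also under 50, with group means of 40.8 in young intact, 34.2 in aged intact, 28.8 in young injured and 9.30 in aged injured cord. On it aged intact replicate 1, at 26.7, lay below young injured replicates 2 and 3, at 30.5 and 32.5. Within each age its injured and intact arrays did not overlap. Gdnf, which encodes the ligand of the RET and GFRα1 complex, was near the bottom of the scale, at 0.3 to 1.1 on the 6 intact arrays and 1.2 to 9.6 on the 6 injured ones. Its injured arrays were all above its intact ones, with an adjusted p in that same fit of 0.00787 in young and 0.0694 in aged cord, but both sides were far under the cutoff and no fold is given.

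Ngfr, which encodes p75NTR, also stayed under 50 in every group mean. Its signals were 21.7, 24.5 and 4.3 in young intact, 11.1, 25.9 and 17.0 in aged intact, 24.8, 63.4 and 19.2 in young injured, and 25.1, 23.1 and 18.0 in aged injured cord. The groups overlapped, and 1 young injured array of the 12 passed 50. Without the cutoff, limma gave adjusted p = 0.138 for injury in young and 0.677 in aged cord. Of the 3 Ngfr probes, none reached a group mean of 50.

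The receptors above the cutoff are shown by array in the plot of member signals. Ntrk2, the gene of TrkB, had signals of 491.1, 480.5 and 463.9 in young intact cord (479 ± 13.7, SD, n = 3), 425.3, 400.8 and 422.9 in aged intact cord (416 ± 13.5), 401.3, 389.6 and 465.8 in young injured cord (419 ± 41.0) and 219.8, 331.9 and 320.4 in aged injured cord (291 ± 61.7). The aged injured arrays lay below all other 9 arrays, while young injured and young intact cord overlapped at the single array of 465.8. After SCI in aged mice the Ntrk2 signal was lower than in aged intact cord, by 0.54 on the log2 scale or 1.43-fold (standard error 0.14, adjusted p = 0.00378, limma). Without aged injured replicate 1 this difference was -0.35 (adjusted p = 0.00200). In young mice it was -0.20 (95% interval -0.50 to 0.10, adjusted p = 0.221), a value that was called when aged injured replicate 1 was left out of the shared estimate of the spread (adjusted p = 0.0291).

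Ntrk3, the gene of TrkC, had signals of 136.3, 111.9 and 133.6 in young intact cord (127 ± 13.4, SD, n = 3), 128.9, 139.2 and 131.0 in aged intact cord (133 ± 5.44), 110.8, 99.8 and 106.3 in young injured cord (106 ± 5.53) and 50.1, 79.1 and 78.4 in aged injured cord (69.2 ± 16.5). Again the aged injured arrays were the lowest of the 12, and here the young injured arrays also lay below the young intact ones. In aged mice SCI lowered the signal by 0.97 on the log2 scale, 1.92-fold (standard error 0.16, adjusted p = 2.27e-04, limma). In young mice the difference of -0.26 (95% interval -0.62 to 0.09) did not pass (adjusted p = 0.161, limma). It was called without aged injured replicate 1 (adjusted p = 0.0220) and with only the arrays of young cord in the fit.

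Sort1 encodes sortilin, the receptor that binds the neurotrophin precursors with p75NTR and also sorts proteins inside the cell. Its signals were 326.8, 286.5 and 337.7 in young intact, 405.0, 305.5 and 386.1 in aged intact, 271.9, 312.8 and 335.4 in young injured, and 287.6, 271.7 and 343.3 in aged injured cord. The groups overlapped in every comparison. The log2 difference with injury was -0.05 in young (95% interval -0.34 to 0.24, adjusted p = 0.750) and -0.28 in aged cord (-0.57 to 0.01, adjusted p = 0.0736).

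**Figure D2:**
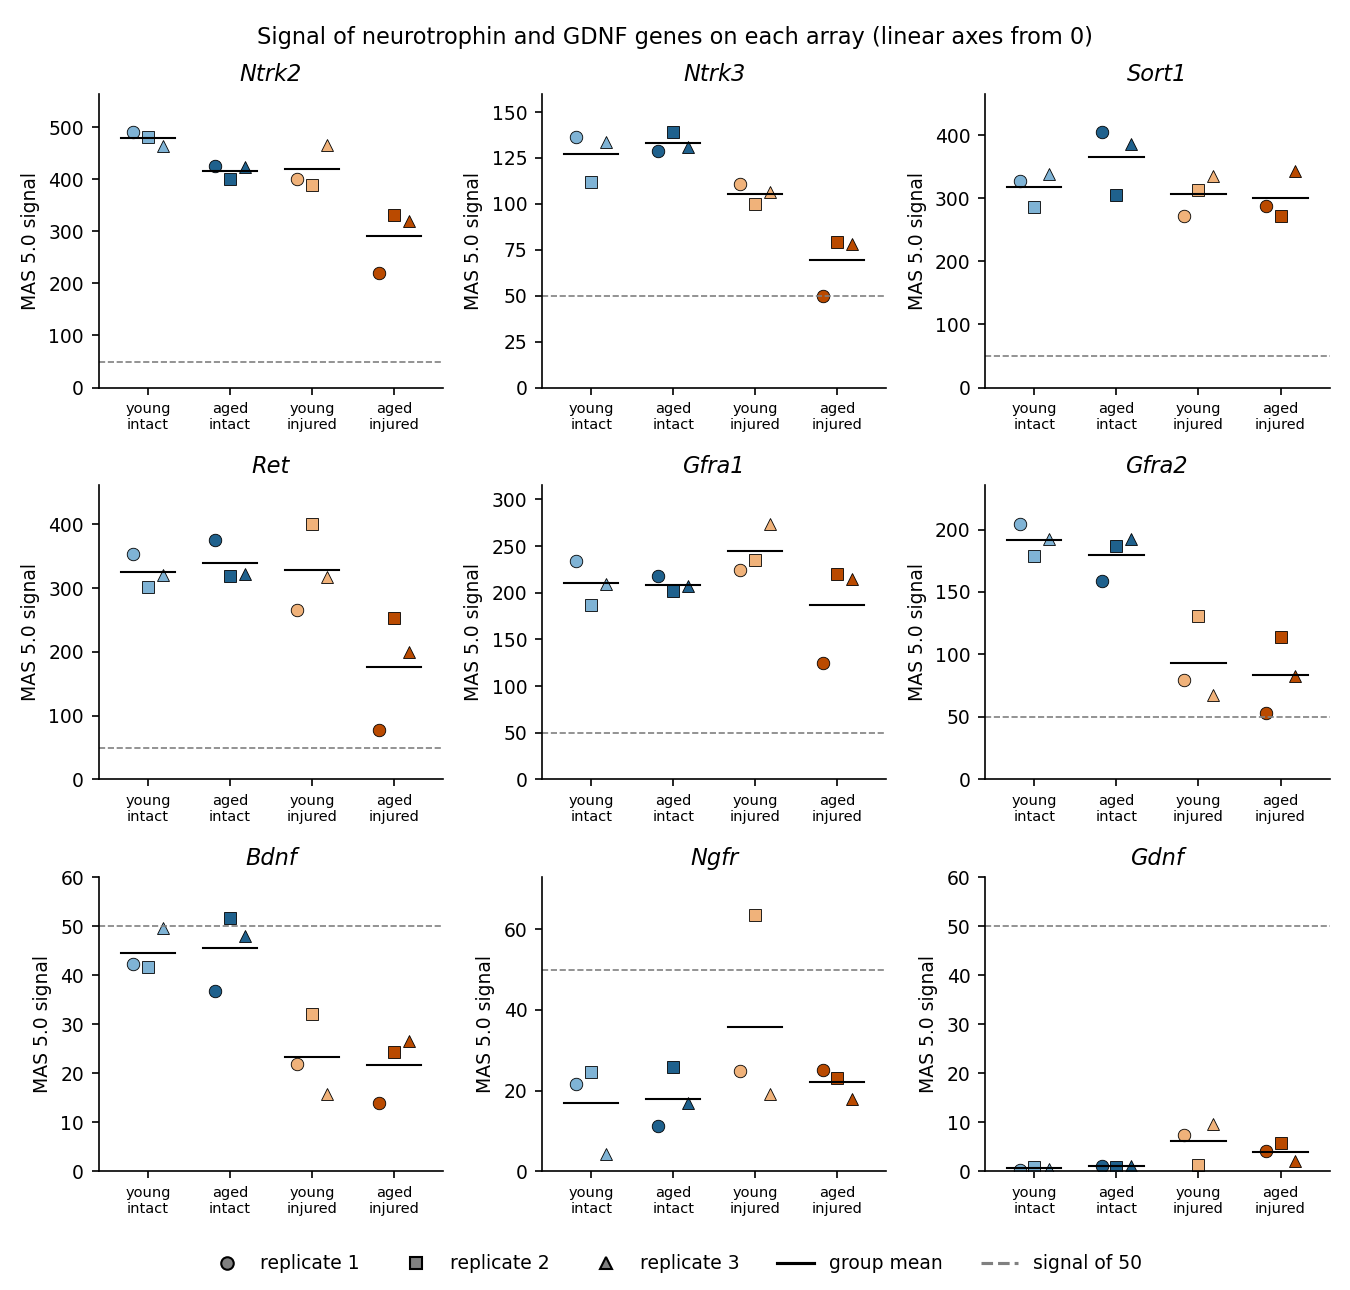
MAS 5.0 signal of the 9 genes with a probe on each of the 12 arrays, by group, with bars at the group means, each panel on its own signal axis. The dashed line is the cutoff of 50; Ntrk2, Ntrk3 and Ret were lowest in aged injured cord, and Gfra2 was lower on all injured arrays than on all intact ones.

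Ret, the signalling kinase of the GDNF family receptors, had signals of 354.1, 301.7 and 321.2 in young intact cord (326 ± 26.5, SD, n = 3), 375.5, 319.3 and 322.4 in aged intact cord (339 ± 31.6), 265.2, 401.3 and 318.1 in young injured cord (328 ± 68.6) and 77.2, 253.8 and 199.8 in aged injured cord (177 ± 90.5). The aged injured arrays were below all others, with replicate 1 far below its own group. SCI lowered Ret in aged cord by 1.10 on the log2 scale (standard error 0.34, adjusted p = 0.0129, limma), and 1.92-fold between the arithmetic means. Without aged injured replicate 1 the log2 difference was -0.59 (adjusted p = 0.00516, limma). With only the arrays of aged cord in the fit the adjusted p was 0.0540. In young cord the difference was -0.01, with a 95% interval of -0.77 to 0.75 that leaves room for a change of either sign.

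Gfra1 encodes GFRα1, the co-receptor preferred by GDNF. Its signals were 234.1, 186.5 and 209.3 in young intact, 217.7, 201.4 and 206.8 in aged intact, 224.8, 235.0 and 274.1 in young injured, and 124.3, 220.5 and 215.1 in aged injured cord. Injured and intact cord overlapped at both ages. The log2 difference with injury was 0.22 in young (95% interval -0.20 to 0.64, adjusted p = 0.318) and -0.21 in aged cord (-0.63 to 0.21, adjusted p = 0.337), and the value in aged cord was 0.06 without aged injured replicate 1.

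Gfra2 encodes GFRα2, the co-receptor preferred by neurturin. Its signals were 204.7, 179.0 and 192.3 in young intact cord (192 ± 12.9, SD, n = 3), 158.9, 186.6 and 192.2 in aged intact cord (179 ± 17.8), 79.5, 131.0 and 67.8 in young injured cord (92.8 ± 33.6) and 53.1, 114.3 and 83.0 in aged injured cord (83.5 ± 30.6). All injured Gfra2 signals were below all intact ones. SCI lowered Gfra2 by 1.11 on the log2 scale in young cord, 2.07-fold (standard error 0.27, adjusted p = 0.00441), and by 1.17 in aged cord, 2.15-fold (adjusted p = 0.00249, limma). On the reported probes it was the only member of the 6 whose arithmetic means differed more than 2-fold with injury. The fitted log2 difference of Ret in aged cord, -1.10, was also more than 2-fold. The study set that fold cutoff for aged against young injured cord. Applied to injury, 10.5% of all genes tested passed it downward in young and 15.5% in aged cord. Of its 5 probes only this one passed 50, and it is a set of the x type, whose oligonucleotides can also bind other transcripts.

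Counted over the 6 members tested, SCI in young cord lowered 1 (Gfra2) and raised none, where 34.1% of all genes tested were called lower and 33.9% higher. In aged cord SCI lowered 4 (Ntrk2, Ntrk3, Ret and Gfra2) and raised none, against 39.9% lower and 35.6% higher over all genes. The arrays did not overlap for Ntrk3 and Gfra2 in young cord and for the 4 called members in aged cord, which in that direction held for 38.7% and 41.6% of all genes tested. The median log2 difference of the 6 members was -0.12 in young and -0.76 in aged cord, against -0.0048 and -0.042 over all genes. Since most genes tested were called with injury at either age, nothing particular to these receptors is read from the counts. The neuron sums given above were lower on every injured array beside them, and their part in the lower receptor signals was not tested.

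**Figure D3:**
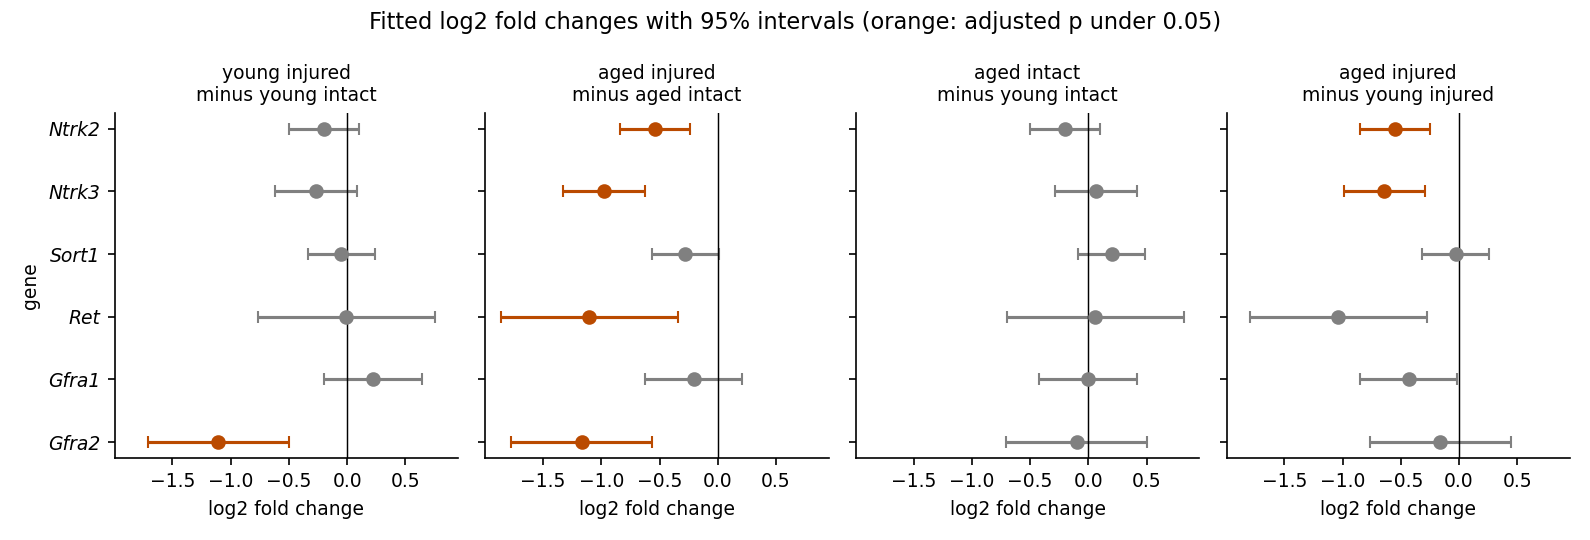
Log2 difference of each of the 6 members tested, in the 4 comparisons, with 95% intervals from limma. Orange points passed an adjusted p of 0.05: Gfra2 with injury at both ages, Ntrk2, Ntrk3 and Ret with injury in aged cord, and Ntrk2 and Ntrk3 with age in injured cord.

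The effect of age was first compared in intact cord. None of the 6 members was called by limma, none had an unadjusted p under 0.05, and adjusted p-values were 0.720 to 1.00, against 0.809% of all genes called in either direction. The nearest to a difference by its arrays was Ntrk2, whose aged intact arrays (400.8 to 425.3) were all below the young intact ones (463.9 to 491.1), a log2 difference of -0.20 (adjusted p = 0.736). Such a lack of overlap in that direction was found for 11.2% of all genes. The astrocyte sums of the same arrays, 18067 to 18821 in aged and 19482 to 20027 in young mice, did not overlap either. Nor did those of oligodendrocytes (22699 to 24148 in aged, 26399 to 28055 in young mice) and their precursors (1714 to 1743 and 2230 to 2370). Sums of macrophages and microglia (3098 to 3436 in aged, 1882 to 2125 in young mice) and of sensory ganglion neurons (449 to 522 and 393 to 420) were higher in aged mice, also without overlap. The part of these cell types in the Ntrk2 difference was not tested.

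In injured cord, 2 of the 6 members, Ntrk2 and Ntrk3, were lower in aged than in young mice, where 8.99% of all genes were called, 4.58% lower and 4.41% higher. The aged to young comparison shares its injured arrays with the injury comparisons above, so the same low arrays enter both. Ntrk2 was lower by 0.55 on the log2 scale, 1.44-fold (standard error 0.14, adjusted p = 0.0349, limma), and Ntrk3 by 0.64, 1.53-fold (standard error 0.16, adjusted p = 0.0349). Ret was not called at -1.04 (95% interval -1.80 to -0.28, adjusted p = 0.0784), nor was Gfra1 at -0.43 (-0.85 to -0.01, adjusted p = 0.156), although for both, as for the Trk genes, every aged injured array was below every young injured one. Without aged injured replicate 1 the Ret difference was -0.52 (adjusted p = 0.0771) and the Gfra1 difference -0.16 (adjusted p = 0.429). The lack of overlap held for 4 of 6 members and for 14.1% of all genes. Gfra2 at -0.16 (-0.77 to 0.44, adjusted p = 0.697) and Sort1 at -0.03 (-0.32 to 0.26, adjusted p = 0.885) overlapped between the ages.

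The 2 calls for age in injured cord were near the threshold. Leaving out any array other than an aged injured one ended the Ntrk2 call, with adjusted p-values up to 0.100, and for Ntrk3 the call was kept in 4 of the 12 fits with 1 array left out, with adjusted p-values up to 0.0898. Without aged injured replicate 1 both were still called, at smaller differences of -0.36 (adjusted p = 0.0273) and -0.42 (adjusted p = 0.0354). In a fit of the 6 injured arrays alone, the adjusted p was 0.194 for Ntrk2 and 0.183 for Ntrk3. The fit of all arrays shared 1 spread per gene over the 4 groups. The SD of the Ntrk2 signal was 13.7 and 13.5 in young and aged intact cord, but 41.0 and 61.7 in young and aged injured cord. In these aged injured arrays the astrocyte list was lower too, with 5 of its 10 genes called lower and a median log2 difference of -0.54, and the neuron list had a median of -1.02 with 0 of 12 called. The part of these cell types in the lower Trk signals was not tested.

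Whether injury acted differently at the 2 ages was asked with the interaction term. No member passed in limma, where 0.438% of all genes did, and 2 of the 6 had an unadjusted p under 0.05. These were Ntrk3, with a difference of -0.71 between the injury effects (95% interval -1.21 to -0.21, adjusted p = 0.174), and Ret, with -1.09 (adjusted p = 0.301). Without aged injured replicate 1 the values were -0.49 (adjusted p = 0.122) for Ntrk3 and -0.58 (adjusted p = 0.217) for Ret. The injury effects called in aged and not in young cord are therefore not shown to differ between the ages.

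The probes of the Trk genes differed among themselves. Ntrk2 had 8 probes, of which 5 passed 50 in a group, and they differed widely in how far they fell with injury. Probe 1458622_at read 469.2, 472.0 and 508.6 in young intact and 462.9, 490.1 and 507.9 in aged intact cord, but 87.4, 150.6 and 98.1 in young injured and 20.2, 136.4 and 73.3 in aged injured cord. Injured and intact arrays were far apart, with log2 differences of -2.15 in young (adjusted p = 0.00369) and -3.05 in aged cord (adjusted p = 2.85e-04). Probe 1435305_at behaved likewise, with means of 304 and 291 in young and aged intact against 88.9 and 53.6 in young and aged injured cord, and log2 differences of -1.79 (adjusted p = 0.00631) and -2.76 (adjusted p = 3.16e-04).

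Probe 1435196_at followed the reported Ntrk2 probe instead. It read 382.3, 340.0 and 365.8 in young intact, 317.1, 354.8 and 353.9 in aged intact, 339.2, 320.3 and 356.5 in young injured, and 142.7, 238.9 and 202.4 in aged injured cord. Only the aged injured arrays were low, with a log2 difference of -0.83 against young injured cord (adjusted p = 0.0139) and -0.84 against aged intact cord (adjusted p = 4.27e-04), and -0.10 with injury in young cord (adjusted p = 0.579). The age difference in injured cord was not called on 1458622_at (-0.89, adjusted p = 0.257) or 1435305_at (-1.03, adjusted p = 0.171), and without aged injured replicate 1 it was -0.12 and -0.29 on these probes. Probe 1437560_at had means of 127 and 87.5 in intact cord of young and aged mice, and read 48.5, 56.4 and 55.1 in young injured and 3.4, 58.4 and 31.1 in aged injured cord. It was called with injury in aged cord (-2.25, adjusted p = 0.0189), where its injured mean of 31.0 was under 50, and the difference was -1.04 (adjusted p = 6.24e-04) without aged injured replicate 1. In young cord its difference of -1.26 was not called (adjusted p = 0.163), but was without that array (adjusted p = 5.57e-05).

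**Figure D4:**
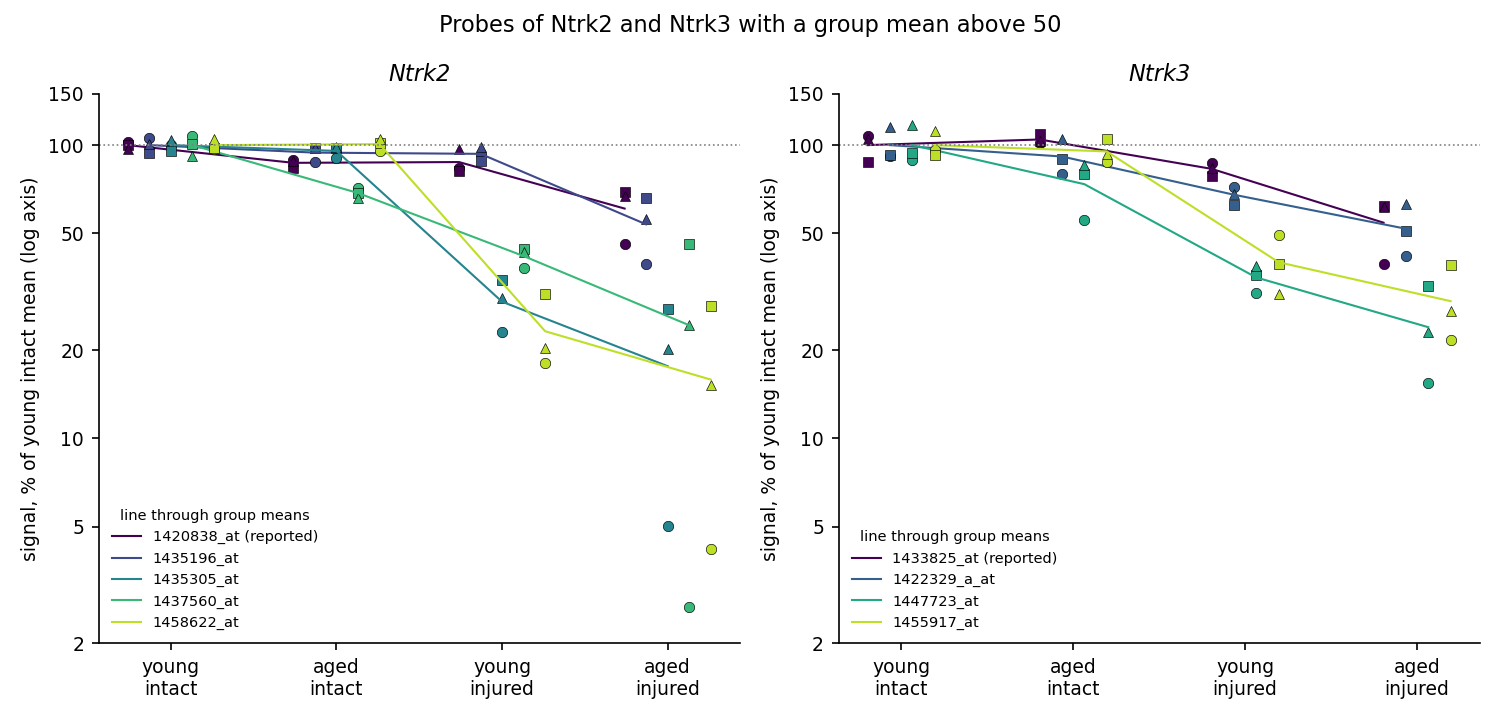
Signal of each Ntrk2 and Ntrk3 probe with a group mean above 50, in percent of its young intact mean on a log axis, on the 12 arrays by group; circles, squares and triangles are replicates 1, 2 and 3, and lines join the group means. Probes 1458622_at and 1435305_at of Ntrk2 fell with injury at both ages, while 1420838_at and 1435196_at were called with injury in aged cord and not in young cord.

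To compare probes of a gene, the log2 signal of each check probe minus that of the reported probe was taken on each array, which removes what both probes share. For 1458622_at this difference was -0.07 to 0.29 on the intact and -3.44 to -1.28 on the injured arrays, a mean change with injury of -2.23 (-1.95 in young and -2.51 in aged mice). For 1435305_at the change was -1.91 and for 1437560_at -1.39. Each had p = 0.005 in an exact two-sided permutation test of the injury labels within each age, the smallest that its 400 arrangements allow, and 0.009 after Benjamini-Hochberg adjustment over the 9 check probes tested for Ntrk2, Ntrk3 and Sort1. For 1435196_at the change was -0.10 (p = 0.26, adjusted 0.334, same exact test). This test was chosen after the probe values had been seen. The reported probe was itself picked by its mean over all 12 arrays, injured ones included, which disfavours probes that fall with injury. In intact cord 1458622_at had means of 483 in young and 487 in aged mice, against 479 and 416 for the reported probe. The p-values are thus not independent of how the reported probe was chosen, for Ntrk3 and Sort1 as well.

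Ntrk3 showed the same kind of split. Its check probes 1455917_at (71.8, 68.9 and 83.1 in young intact, 36.8, 29.3 and 23.1 in young injured cord) and 1447723_at fell with injury at both ages. The log2 differences of 1455917_at were -1.35 in young (adjusted p = 3.77e-04) and -1.74 in aged cord (adjusted p = 4.67e-05), and those of 1447723_at -1.50 (adjusted p = 8.71e-04) and -1.67 (adjusted p = 3.01e-04), where the injured means of both probes were under 50. Relative to the reported probe their changes with injury were -0.92 and -0.96, each with p = 0.005 and adjusted p = 0.009 in the exact permutation test, and probe 1422329_a_at had -0.07 (p = 0.485). On its own this last probe was also called lower with injury by limma, by 0.56 on the log2 scale in young cord (adjusted p = 0.0139, and 0.0614 without young intact replicate 3). In aged cord its difference was -0.83 (adjusted p = 0.00108, limma), and its injured means were 44.1 in young and 33.7 in aged mice. All 3 check probes passed 50 through intact groups alone, 1447723_at through young intact cord only. They were thus chosen by the groups in which they are high. Their calls in young cord, where the reported probe was not called, are therefore no separate evidence of a fall. None of these 3 probes was called for age in injured cord (adjusted p = 0.144 to 0.195). Which transcripts of Ntrk2 or Ntrk3 each probe reads was not given in the sources used here, so the probes are not assigned to kinase or truncated receptors.

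The 2 check probes of Sort1 changed against the reported one with injury by means of 0.13 and -0.03 (p = 0.245 and 0.91, exact permutation test), the latter, for 1450955_s_at, being the mean of 0.15 in young and -0.20 in aged cord. Probe 1450955_s_at was lower with injury in aged cord, by 0.48 on the log2 scale (adjusted p = 0.00841), from 100.9, 91.2 and 110.5 in intact to 69.2, 88.9 and 60.8 in injured cord. Its aged intact arrays were above the young intact ones (70.3, 81.2 and 71.0), a log2 difference of 0.44 that was not called (adjusted p = 0.251).

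The genes with the pattern most like that of a member over the 12 arrays were found by Pearson's r of log2 signals, given as a description over arrays that share the split between injured and intact cord. For Ntrk2 they were Tspan3 (r = 0.987), Ntsr2 (0.983) and Rfx4 (0.976), and for Ntrk3 Ank2 (0.983), Porcn (0.977) and Klf15 (0.977). For Ret they were Rimklb (0.978), Penk (0.969) and Scg3 (0.969), and for Gfra2 St6galnac5 (0.987), Khdrbs2 (0.987) and Csnk1g3 (0.985). For Gfra1 they were Sox11 (0.942), Sema6a (0.924) and Mlc1 (0.918), while the highest values for Sort1 were lower, with Vps9d1 at 0.832, Caprin2 at 0.821 and Cdan1 at 0.817.

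The rest of the pathway was read from 4 lists of genes. The counts below stand beside 33.9% of all genes tested called higher and 34.1% lower with SCI in young cord, and 35.6% and 39.9% in aged cord. Genes that passed the cutoff through the injured or the intact groups alone were chosen by the groups in which they are high, and they are named as such. Of 16 other ligands and receptors of the 2 families, 13 had a probe and 7 passed the cutoff. The remaining ligand genes Ntf5, Nrtn, Artn and Pspn were all under 50 in every group, as was Gfra3. With SCI 4 of the 7 fell and 2 rose in young cord (median -0.70), and 5 fell and 2 rose in aged cord (median -1.07). Of the sortilin relatives, Sorcs2 was under 50 in every group and the other 3 fell: Sorcs1 from a mean signal of 93.6 to 27.6 in young and from 98.5 to 24.7 in aged cord (adjusted p = 1.62e-04 and 3.70e-05), Sorcs3 likewise, and Sorl1 from 879 to 541 and from 803 to 391 (adjusted p = 0.00136 and 5.60e-05). Gfra4, the persephin co-receptor gene, fell from 54.8 to 23.8 and from 50.4 to 22.4 (adjusted p = 4.34e-04 and 3.49e-04). Sorcs1, Sorcs3 and Gfra4 passed the cutoff through the intact groups alone.

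The 2 that rose were Nradd, a death-domain relative of p75NTR, from 16.8 to 42.9 in young and from 16.2 to 56.8 in aged cord (adjusted p = 0.00102 and 1.07e-04), and Sdc3. Nradd passed the cutoff through aged injured cord alone, and in young cord both of its means were under 50. Sdc3, which encodes syndecan-3, a heparan sulfate proteoglycan that binds GDNF, rose from 181 to 266 in young cord (adjusted p = 8.84e-04) and from 170 to 371 in aged cord (adjusted p = 4.55e-06). After SCI its signal was also greater in the aged than the young mice, by 0.48 on the log2 scale (adjusted p = 0.0234), a call that ended without replicate 1 or 2 of the young or replicate 3 of the aged injured group. Ncam1, an alternative GDNF receptor, fell in aged cord only by the test (-0.67, adjusted p = 0.0220), and the interaction did not pass (adjusted p = 0.481). Its call ended without replicate 2 or 3 of the aged intact group, and the difference was -0.31 without aged injured replicate 1.

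Among 10 genes of enzymes that cut neurotrophin precursors or regulate that step, 5 were tested. With SCI 2 rose and 1 fell in young cord, and 3 rose and 1 fell in aged cord. Plat, the tissue plasminogen activator gene, rose from 486 to 820 in young and from 390 to 728 in aged cord (adjusted p = 6.34e-06 and 1.36e-06), and Furin, a proprotein convertase gene, by 0.99 and 0.85 on the log2 scale (adjusted p = 7.84e-05 and 1.48e-04). Pcsk6, a related convertase gene, fell, with log2 differences of -0.59 and -0.96 (adjusted p = 0.0130 and 5.68e-04), the former being -0.39 without young injured replicate 3 (adjusted p = 0.0462). Pcsk7, the third that rose in aged cord, passed the cutoff through the injured groups alone.

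Of 29 adaptor and effector genes of Trk and RET, 20 were tested. With SCI 7 rose and 3 fell in young cord, and 8 rose and 7 fell in aged cord, with a median of 0.05 in each. Dok1 (adjusted p = 7.82e-05 in young and 7.91e-05 in aged cord), Sh2b3 (3.51e-06 and 1.78e-06) and Shc1 (1.27e-04 and 1.15e-04) had intact means of 11.6 to 30.5 and injured means of 54.5 to 116, and passed the cutoff through the injured groups alone. These are genes also used by blood-derived cells, and the sum of the macrophage and microglia list rose beside them, from 1882 to 3436 over the intact to 17191 to 23729 over the injured arrays. Their part in these rises was not tested. In injured cord the adaptor gene Grb2 was higher in aged mice (397 in young and 629 in aged mice, 0.65 on the log2 scale, adjusted p = 0.0140), a call kept with each array left out. Cbl, a ubiquitin ligase gene, was higher by 0.36 (adjusted p = 0.0349), Gab1, a docking protein gene, was at -0.53 (adjusted p = 0.0439, and -0.32 without aged injured replicate 1), and Ptprf, a receptor phosphatase gene, at -0.53 (adjusted p = 0.0183).

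Of 19 partner and effector genes of p75NTR, 13 were tested, of which 7 rose and 5 fell with SCI in young cord and 6 rose and 6 fell in aged cord. Of these only Traf6 passed the cutoff through the injured groups alone. Adam17, the gene of the protease that sheds p75NTR and other proteins, rose from 111 to 406 in young and from 93.4 to 578 in aged cord (adjusted p = 3.30e-06 and 2.12e-07). Psen2, of the gamma-secretase that cuts the remaining stub, rose by 0.94 and 1.93 on the log2 scale (adjusted p = 2.73e-04 and 1.21e-06) and after SCI was 0.65 above the young in the aged mice (adjusted p = 0.0276), a call that ended without replicate 1 or 2 of the young injured group. Bex1 and Ndn, whose products bind p75NTR and are abundant in neurons, fell too. The log2 differences of Bex1 were -1.59 in young and -2.37 in aged cord (adjusted p = 0.00705 and 4.49e-04), and those of Ndn -1.26 and -1.86 (adjusted p = 0.00580 and 3.79e-04). Over the 4 lists, limma called 0 of the 45 genes tested for age in intact cord (6 with an unadjusted p under 0.05), where 0.809% of all genes were called. In injured cord 9 of the 45 were called for age, against 8.99% of all genes. Beside those already named these were Pcsk5 at -0.59 (adjusted p = 0.0432), Maged1 at -0.59 (adjusted p = 0.0373) and Tnfrsf19 at -0.42 (adjusted p = 0.0392). The last 2 were at -0.39 and -0.27 without aged injured replicate 1, and Pcsk5 at -0.38 without young injured replicate 1. Of the 9 calls only that of Grb2 was kept with each of the 12 arrays left out in turn, and all 9 ended when only the injured arrays entered the fit (adjusted p = 0.141 to 0.210).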

How the data were processed

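Total RNA of 12 spinal cords, 1 per mouse, was hybridized to GeneChip arrays of the mouse genome. The deposited values are linear signal intensities that the authors made with MAS 5.0, an algorithm of background correction and scaling; whether more was done is not given in the sources used here. The annotation gave 1 gene for 34958 of 45101 probes, several for 932 and none for 9211. Log2 of the deposited signals, 1 probe per gene, was fitted with limma 3.58.1 (R 4.3.3): 1 mean per group, a trend of the spread on the signal, only genes whose mean passed 50 in some group, and Benjamini-Hochberg adjustment over all 10511 genes, called under 0.05. Folds are ratios of arithmetic group means. The fit was tested on simulated data. All 10 members are named, and of each pathway list at most the 4 largest calls in each direction. Members and lists were chosen with earlier results of these data known. Alternatives were other cutoffs (none, 100), log2(signal + 16), quantile normalization, no trend, the replicate number as a block, only the 2 groups compared, all probes averaged, and each array left out. The series' design text gives 3 animals per group. The sample titles number the samples within each group and name no tie across groups. A comparison of the probes of a gene was added after the data had been seen.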

Additional observations from a re-analysis of the deposited data

How the results depend on the processing

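The number of the 6 members called was 1 for injury in young, 4 for injury in aged cord, 0 for age in intact cord, 2 for age in injured cord and 0 for the interaction. A cutoff of 100, log2(signal + 16), quantile normalization and the fit without a trend gave these same counts. Without a cutoff, 3 of the then larger set were called with injury in young cord (Gfra2 and Bdnf lower, Gdnf higher) and 1 for age in injured cord (Ntrk2). With only the 2 groups compared in the fit, limma called 2 members with injury in young cord and 0 for age in injured cord, where it called 0 of all genes and 3 of the 6 members had an unadjusted p under 0.05. With all probes of a gene averaged, 0 were called with injury in young cord (unadjusted p under 0.05 for 2) and 0 for age in injured cord (for 2). With 1 array left out, the counts were 1 to 3 for injury in young cord (3 without aged injured replicate 1), 4 to 5 for injury in aged cord, 0 for age in intact cord and the interaction, and 0 to 4 for age in injured cord (4 without aged injured replicate 2). The cause of these changes was not tested. Except for the fit of the 2 groups of injured cord, the share of all genes called in each alternative fit is not given here. A changed count is therefore not read as a result about the members. With the replicate number as a block the counts were 1, 5, 0, 2 and 0, the fifth call in aged cord being Sort1 (adjusted p = 0.0366, limma). Deviations from the group means correlated at -0.113 to 0.667 for same-numbered arrays and at -0.628 to 0.323 for other arrays. The highest values were those of young with aged injured replicate 1 (0.595) and replicate 2 (0.667), whereas replicate 3 had 0.0145. Whether same-numbered injured samples share more than a number was not tested. Over single members and these settings, 561 values kept their call or lack of one, 24 lost and 9 gained the call, and no called value turned its direction. With another probe of the member in its place, 33 did so, 6 lost and 6 gained it. Signals under 50 limit what can be said of Bdnf, Gdnf and Ngfr, and 3 arrays a group limit small differences such as those of Sort1.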

Other observations

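Of the other cell types of the lists, that of Schwann cells, which are known to express Ngfr and Gfra1 in injured nerve, had summed signals of 355 to 401 in young intact, 381 to 427 in aged intact, 476 to 562 in young injured and 402 to 441 in aged injured cord. Its gene Pmp2 was under 50 in every group. The fibroblast list had sums of 2546 to 4138 over the intact and 10799 to 15403 over the injured arrays. The list of oligodendrocyte precursors had 2230 to 2370 in young intact cord, 1714 to 1743 in aged intact cord and 1183 to 2087 over the injured arrays. The sums of the oligodendrocyte list were 26399 to 28055 in young intact, 22699 to 24148 in aged intact, 24152 to 26151 in young injured and 15922 to 22225 in aged injured cord. The endothelial list had 296 to 385 over the intact and 287 to 471 over the injured arrays. The sensory neuron genes Scn10a, Scn11a and Avil stayed under 50 in all groups, as did the motor neuron genes named above.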
